A study of Caenorhabditis elegans with 2 samples.

Results

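The 9 genes examined encode the cohesin ring and its close partners in Caenorhabditis elegans. They were taken by name from a fixed list, out of 46926 genes in the Ensembl annotation of the WBcel235 (ce11) assembly. That list was chosen with earlier results of these data known. The 9 genes comprise 5 kleisin genes (rec-8, coh-3, coh-4, coh-1 and scc-1), the 2 SMC genes smc-3 and him-1, scc-3 and wapl-1. All 9 were found in the annotation. The data are chromatin immunoprecipitation with sequencing (ChIP-seq) of REC-8 itself, fused at its C-terminus to a GFP-FLAG tag in strain YL563, with an antibody against GFP. Both biological replicates, the only samples, were whole young adult hermaphrodites collected 48 hours after release from starvation-synchronized L1, and both carry the tagged transgene. No untagged or other comparison group was analysed here, and whole animals mix the germ line, where REC-8 acts, with somatic tissue.

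Cohesin is a ring formed by a pair of SMC ATPases and a kleisin that closes it, and it holds sister chromatids together from replication until anaphase. The kleisin gives the ring its identity: SCC-1 serves mitosis, REC-8 and the pair COH-3 and COH-4 serve meiosis, and COH-1 is a further kleisin of this worm. SCC-3 binds the kleisin, and WAPL-1 releases cohesin from chromatin. The question addressed here is therefore where a meiotic cohesin subunit was found at the genes that encode cohesin.

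REC-8::GFP summits at the cohesin genes lay mostly beside the genes rather than inside them, as they did at all nuclear protein-coding genes. No cohesin summit was among the reproducible peaks of highest signal. The best pooled summit of each listed cohesin gene but scc-3 ranked above the median best summit of all listed protein-coding genes. By median rank, however, the cohesin summits were weaker than the pooled list as a whole, and stronger than the whole list in each replicate. For each gene a window was taken that runs from 2000 bp upstream to 2000 bp downstream of the annotated gene. The authors' relaxed list from the reads of both replicates together (the pooled list, 18953 peaks) placed 30 summits in the windows of 8 of the 9 genes, and coh-1 had none. A pooled summit was in the window of 68.3% of the 19973 nuclear protein-coding genes, so the count of genes is near the background. The list of replicate 1 (21160 peaks) had summits at the same 8 genes (73.7% of nuclear protein-coding genes had one) and that of replicate 2 (21503 peaks) at all 9 (72.5%). The 8 genes had a summit in all 3 lists, as did 54.4% of nuclear protein-coding genes. The authors' reproducible set, 584 peaks on nuclear chromosomes, placed 0 summits in any of the 9 windows, where 4.91% of nuclear protein-coding genes had at least 1. That set is made up of the pooled peaks of highest signal, and the strongest summit of a cohesin gene, at smc-3, ranked 779. A rank counts peaks of one list from the highest signal down, the signal being the authors' peak-caller value.

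The 9 windows span 89.4 kb and held 0.335 pooled summits per kb, against 0.221 per kb over the windows of all nuclear protein-coding genes, a ratio of 1.51. The ratio was 1.53 in the list of replicate 1 (33 summits) and 1.54 in that of replicate 2 (34 summits). Counting summits closer than 430 bp as 1, an alternative added once the values were known, lowered the ratio to 1.3. The higher density was not confined to these windows, and with flanks of 5000 bp the ratio was 1.81. The number per gene ran from 0 at coh-1 to 6 at rec-8, with a median of 3, where the median protein-coding gene had 1. Unlike the densities, these counts are not corrected for the length of the window. Only 5 of the 30 summits, at 5 different genes, had a q-value under 0.1 (−log10 q above 1), namely the strongest summits of smc-3, coh-4, him-1, rec-8 and scc-1. Of all nuclear pooled summits 9.88% were past that value, and of all nuclear protein-coding genes 14.4% had such a summit in the window. Replicate 1 had such summits at 3 of the 9 genes (13.2% of nuclear protein-coding genes) and replicate 2 at 4 (18.5%). All 5 pooled summits lay nearer to the annotated start of a neighbouring gene than to that of the cohesin gene. The share of such summits over all nuclear protein-coding genes was not computed.

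The summits were denser beside the genes than within them. Of the 30 pooled summits, 13 were upstream, 9 downstream and 8 inside (5 in coding exons, 3 in introns and 0 in untranslated regions). These were 43.3%, 30.0% and 26.7% of them. In the windows of all nuclear protein-coding genes the shares were 28.6%, 31.7% and 39.7%. The upstream flanks held 0.722 summits per kb, against 0.229 per kb for all nuclear protein-coding genes. The downstream flanks held 0.5 against 0.254 per kb, and the gene bodies 0.15 against 0.197 per kb. These densities count every summit, including upstream ones closer than 430 bp to each other at rec-8, coh-3, him-1 and wapl-1. The longest genes, smc-3 (15344 bp) and coh-1 (9826 bp), had no pooled summit inside and made up much of the 53.4 kb of gene bodies. In replicate 1 the same 3 densities were 0.667, 0.556 and 0.206 per kb, and in replicate 2 they were 0.556, 0.611 and 0.243 per kb. The flanks were denser than those of all genes in both replicates, while the gene bodies lay below the level of all genes in replicate 1 (0.225 per kb) and above it in replicate 2 (0.221 per kb).

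**Figure D1:**
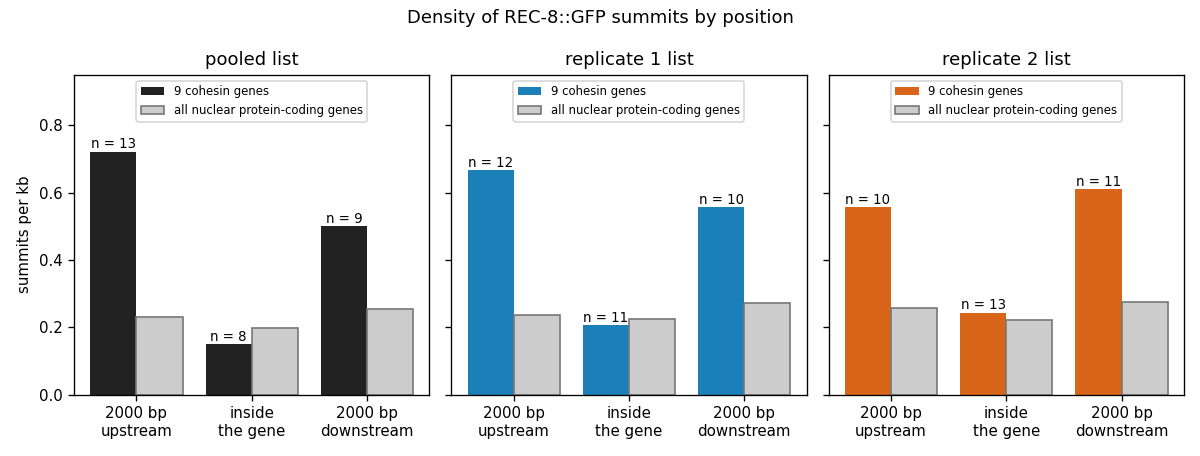
Bars give REC-8::GFP summits per kb (vertical axis) in the 2000 bp upstream of the gene, inside it and in the 2000 bp downstream, for the 9 cohesin genes (coloured, with the number of summits) and for all nuclear protein-coding genes (grey), in each list. The upstream bar of the cohesin genes reaches 0.722 per kb in the pooled list, against 0.229 per kb for all genes. Summits closer than 430 bp are counted separately.

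These flanks are shared with other genes. In 8 of the 9 cases a protein-coding gene on the opposite strand starts within 2000 bp upstream, at distances from 228 bp (mib-1, upstream of smc-3) to 1550 bp (enu-3.3, upstream of him-1), and coh-1 is the exception. Such a neighbour is annotated for 28.7% of nuclear protein-coding genes. Those 5731 genes held 0.292 pooled summits per kb upstream, more than the 0.229 per kb of all genes and less than the 0.722 per kb of the cohesin genes. Of the 13 upstream summits 11 were nearer to the start of a neighbour, and of the 9 downstream summits 8 were. No such shares were computed over all nuclear protein-coding genes, so these counts do not set the cohesin genes apart.

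The gene of the tagged protein, rec-8 (IV:13349122-13353193, minus strand), had 6 summits in the pooled list, the most of the 9 genes there. It had 5 in replicate 1, as many as him-1 and wapl-1, and 4 in replicate 2, where him-1 had 7 and smc-3 had 5. Its strongest pooled summit (signal 63.42, rank 1017, −log10 q 2.08) lay 657 bp past its 3′ end, in a coding exon of W02A2.9. Replicate 1 placed a summit of signal 57.26 and rank 324 there, 44 bp away, whereas the nearest summit of replicate 2 was 198 bp away, beyond the 100 bp counted as a match. A weaker summit 442 bp past the 3′ end (rank 9106) was matched in both replicates, at ranks 5248 and 3957. Upstream, a pair of summits 1072 and 1293 bp from the rec-8 start (ranks 4148 and 15682) lay in a coding exon of mex-5, which encodes an RNA-binding protein of embryonic polarity. Inside rec-8, the summit in an intron (rank 15377) was matched in replicate 2 alone and that in a coding exon (rank 11252) in replicate 1 alone. No pooled summit was within 500 bp of a rec-8 transcript start. Whether the tagged transgene changed the number of reads at this locus was not tested.

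**Figure D2:**
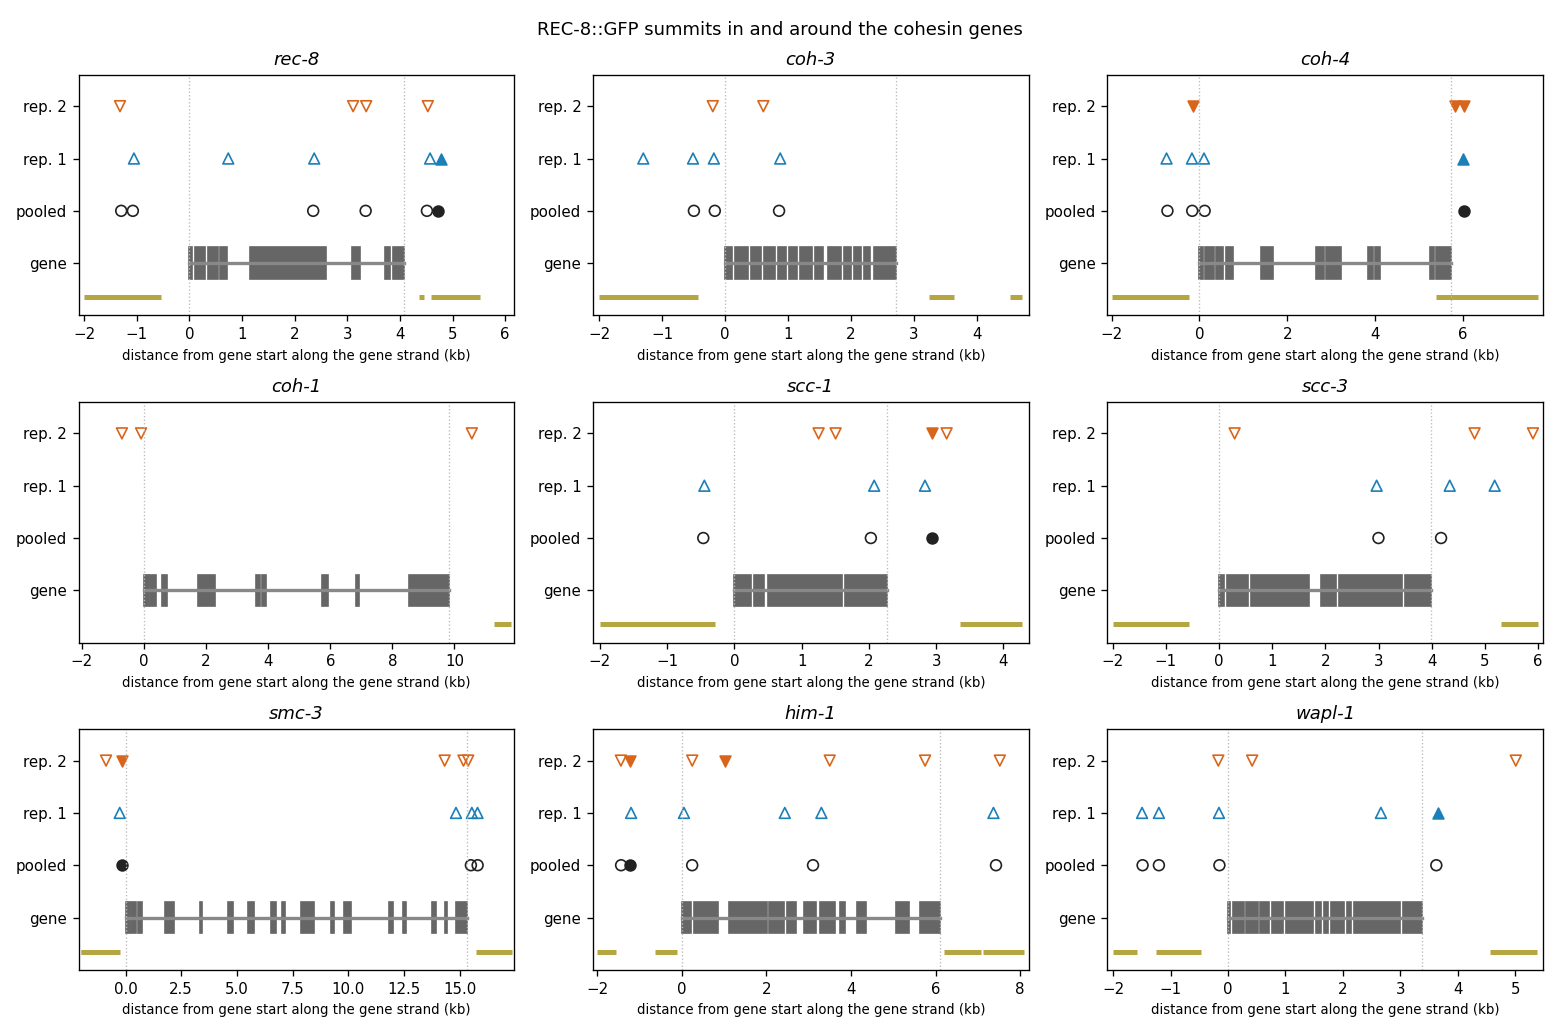
Each panel maps the summits of 1 gene by distance from its start along its own strand (horizontal axis, kb), with exons as dark boxes, neighbouring protein-coding genes as ochre bars below and a row of markers for each list. Filled markers have a −log10 q above 1, open markers do not, and dotted lines mark the gene ends. The summit 657 bp past the end of rec-8 is filled in the pooled list and in replicate 1 only, and coh-1 has markers in replicate 2 only.

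The other meiotic kleisin genes, coh-3 (V:14457422-14460141, plus strand) and coh-4 (V:4169912-4175640, minus strand), are near copies, with 90.2% identity over 1812 aligned coding bases. Each had a pooled summit at almost the same place, 165 bp upstream of the coh-3 start and 164 bp upstream of the coh-4 start. The coh-4 summit was nearer to pid-5, which starts on the opposite strand 78 bp away, whereas that of coh-3 was nearest to coh-3. At coh-3 this summit had a signal of 45.58 and rank 2670, and it was matched at rank 7664 in replicate 1 and 5200 in replicate 2. At coh-4 the signal was 48.41 and the rank 2185, with matches at ranks 6413 and 2435. Both genes thus carried this summit in both replicates, at ranks that were moderate in every list. Neither peak contains a run of 36 bases that occurs elsewhere in the nuclear genome, so reads of that length are distinct between the copies at both peaks. The strongest summit of coh-4 lay at its other end, 294 bp past the 3′ end in a coding exon of Y45G5AM.7 (signal 69.11, rank 829, −log10 q 2.27). It was the most even of the stronger summits, with rank 1433 in replicate 1 and 1178 in replicate 2. At coh-3 nothing comparable was listed downstream, and its remaining pooled summits, 497 bp upstream (rank 11442, in the 5′ untranslated region of the kinesin gene bmk-1) and 856 bp into the gene (rank 9962, in a coding exon), were matched in replicate 1 alone.

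The other kleisin genes, scc-1 and coh-1, differed in how often they were listed. At scc-1 (II:4698721-4700994, plus strand), the strongest summit lay 670 bp past the 3′ end, 405 bp from the start of unc-85, which encodes a histone chaperone (signal 52.45, rank 1714, −log10 q 1.10). Replicate 2 had it at the same base (rank 2375), and the nearest summit of replicate 1 was 109 bp away (rank 3237). Of the runs of 36 bases in this peak, 70.9% occur elsewhere in the nuclear genome, and how reads with several matches were treated is not stated in any source used here. A weaker summit, 461 bp upstream and 34 bp from a start of the proteasome gene rpn-5, ranked 11773 and was matched in replicate 1 alone (rank 7054). The remaining pooled summit, in a coding exon near the gene end, ranked 8224 and was also matched in replicate 1 alone. For coh-1 (X:7465193-7475018, minus strand), the pooled list and replicate 1 had 0 summits in 13.8 kb, and replicate 2 had 3, at ranks 9259, 11478 and 15875. A window without a pooled summit was found for 9.5% of the 1042 nuclear protein-coding genes that are at least as long.

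Of the SMC genes, smc-3 (III:11290904-11306247, plus strand) carried the summit of highest signal among all 9 genes. It lay 172 bp upstream of the smc-3 start and 56 bp from the start of mib-1, a ubiquitin ligase gene on the other strand (signal 71.33, rank 779, −log10 q 2.37). In replicate 2 the matching summit lay 3 bp away with a signal of 47.79 and rank 506, and in replicate 1 it lay 88 bp away with a signal of 23.95 and rank 5711. It was thus among the strongest peaks of one replicate and unremarkable in the other. Among nuclear protein-coding genes 6.34% had a best summit of the same or a higher rank. No other pooled summit lay in the first 15 kb of the gene, and those just past its 3′ end, at ranks 17298 and 17277, were among the weakest of the list. At him-1 (I:4951571-4957667, minus strand), which encodes the SMC-1 subunit, the strongest summit was 1235 bp upstream, nearer to enu-3.3 than to him-1 (signal 69.04, rank 833, −log10 q 2.27). It ranked 678 in replicate 2 and 3079 in replicate 1, and 46.6% of its runs of 36 bases are repeated elsewhere. The neighbouring summit 1436 bp upstream (rank 10659, 72.2% of runs repeated) was matched in replicate 2 alone. A him-1 summit 1331 bp downstream (rank 6741), in a coding exon of F28B3.10, was matched in both replicates, and the pooled summits within him-1 ranked 12002 and 14743. Each replicate also listed a stronger summit in an intron of him-1 that the other and the pooled list did not have within 100 bp. It was 2434 bp into the gene in replicate 1 (signal 31.49, rank 2046) and 1030 bp into it in replicate 2 (signal 30.94, rank 1391, −log10 q 2.05).

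The genes of the partner proteins, scc-3 and wapl-1, had no pooled summit with a −log10 q above 1. For scc-3 (V:12763945-12767933, plus strand) the pooled list had 2, in a coding exon (rank 8749) and 187 bp past the 3′ end (rank 12704), and neither was matched in replicate 2. Of all nuclear protein-coding genes, including those without a pooled summit, 45.7% had a better best summit. Among genes with a pooled summit the median best rank was 5662, stronger than the 8749 of scc-3. At wapl-1 (IV:4442362-4445740, minus strand) the summit nearest to the start, 149 bp upstream, ranked 4007 with a signal of 40.29. It was matched in both replicates, at ranks 7173 and 9617. The strongest pooled summit of wapl-1, 1202 bp upstream (signal 44.51, rank 2901), lay in the 3′ untranslated region of htz-1, the gene of histone H2A.Z, and was matched only in replicate 1, at the same base (rank 2691). The summit 247 bp past the 3′ end of wapl-1 ranked 11171 in the pooled list and 1522 in replicate 1 (−log10 q 1.14), with no match in replicate 2, and 15.4% of its runs of 36 bases are repeated elsewhere. A snoRNA gene, R08C7.19, lay within 500 bp of the summit 1486 bp upstream (rank 11344). That was the only 1 of the 30 pooled summits with a tRNA, snoRNA or snRNA gene start so near.

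A summit shortly before the gene start was common to 4 of the genes, of which coh-3 and coh-4 are near copies. At coh-3, coh-4, smc-3 and wapl-1 the pooled summit lay 149 to 172 bp upstream of the gene start. At coh-4 and smc-3 it was nearer to the start of the opposite-strand neighbour, 78 bp from pid-5 and 56 bp from mib-1. Counted between 100 and 200 bp, a range chosen after these values were seen, 3.87% of nuclear protein-coding genes had a pooled summit there, and 6.09% of those with an opposite-strand neighbour starting within 2000 bp. Replicate 2 placed summits in this range at the same 4 genes (3.35% of genes in replicate 1 and 4.1% in replicate 2 had one), and replicate 1 at coh-3, coh-4 and wapl-1. With all transcript starts and 500 bp to either side, 6 of the 9 genes had a pooled summit, against 27.4% of nuclear protein-coding genes, and 7 had one in each replicate (28.2% of genes in replicate 1 and 29.8% in replicate 2). In the reproducible set the count was 0, where 1.56% of nuclear protein-coding genes had such a summit.

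**Figure D3:**
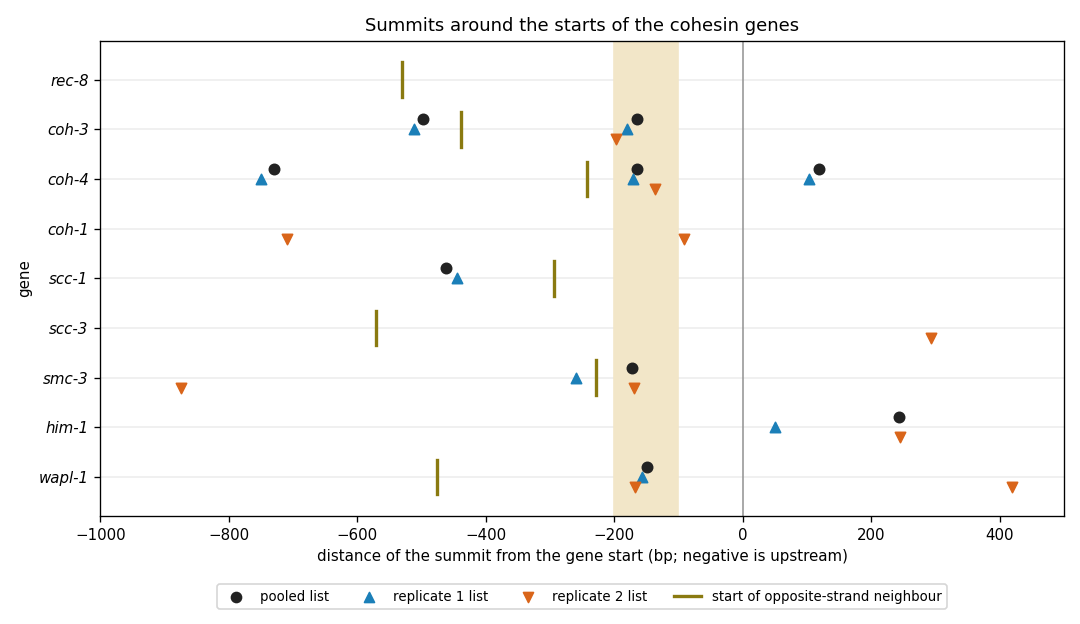
Points are summits by distance from the gene start (horizontal axis, bp, negative upstream) for each of the 9 genes, coloured by list, with ochre bars at the nearest start of an opposite-strand neighbour and shading from 100 to 200 bp upstream. The pooled summits of coh-3, coh-4, smc-3 and wapl-1 fall in the shaded range, at 165, 164, 172 and 149 bp.

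The sequences at these 4 summits, and at the strongest summit of rec-8, are given to show what the upstream peaks of the different genes have in common. Each runs 5′ to 3′ on the strand of its gene, up to 100 bases to either side of the pooled summit, and upstream stretches stop at the first annotated exon. Capitals mark a run of 9 bases present in coh-3, coh-4 and wapl-1, or, in smc-3 and rec-8, the 11 bases centred on the summit.
coh-3, chrV:14457157-14457357, plus strand: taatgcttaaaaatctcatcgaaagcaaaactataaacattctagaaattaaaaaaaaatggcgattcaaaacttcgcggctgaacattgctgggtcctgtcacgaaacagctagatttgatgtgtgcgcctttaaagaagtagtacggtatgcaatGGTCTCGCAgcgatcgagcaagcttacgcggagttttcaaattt
coh-4, chrV:4175704-4175881, minus strand: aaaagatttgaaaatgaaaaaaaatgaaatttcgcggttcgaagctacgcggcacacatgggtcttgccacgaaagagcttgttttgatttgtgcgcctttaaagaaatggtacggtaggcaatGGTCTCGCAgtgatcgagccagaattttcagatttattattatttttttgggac
wapl-1, chrIV:4445789-4445989, minus strand: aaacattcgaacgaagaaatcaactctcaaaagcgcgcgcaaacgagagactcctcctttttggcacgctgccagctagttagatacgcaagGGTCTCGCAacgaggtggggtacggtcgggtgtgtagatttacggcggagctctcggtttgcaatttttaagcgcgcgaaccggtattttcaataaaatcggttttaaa
smc-3, chrIII:11290677-11290832, plus strand: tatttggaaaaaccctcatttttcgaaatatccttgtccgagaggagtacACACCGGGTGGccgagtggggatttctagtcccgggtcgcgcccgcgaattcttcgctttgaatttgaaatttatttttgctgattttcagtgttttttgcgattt
rec-8, chrIV:13348365-13348565, minus strand: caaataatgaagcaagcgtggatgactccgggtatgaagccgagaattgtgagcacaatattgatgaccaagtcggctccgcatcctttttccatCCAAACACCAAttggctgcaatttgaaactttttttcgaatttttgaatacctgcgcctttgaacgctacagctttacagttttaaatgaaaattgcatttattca
The 300 bp upstream of coh-3 and coh-4 were 78.3% identical over 272 aligned bases, against 65.1% for coh-3 and smc-3 by the same gapped alignment. The longest exact run of the pair in the stretches shown is 17 bases. The run GGTCTCGCA is the longest that the stretches of coh-3, coh-4 and wapl-1 share. It starts 57 bases after the summit in coh-3, 47 after it in coh-4 and 8 before it in wapl-1. It was found by comparing these sequences and so is no test of them. On either strand it was present in the 300 bp upstream of 0.676% of nuclear protein-coding genes (135). Of the 9 cohesin genes only coh-3, coh-4 and wapl-1 had it there, and coh-3 and coh-4 are near copies. Of 782 copies in the nuclear genome 12.9% lay within 100 bp of a pooled summit, where 3.79% of nuclear bases at most are so near. The 12.9% includes the copies at coh-3, coh-4 and wapl-1, and the 3.79% is over all nuclear bases, not those upstream of genes. A link between the run and REC-8 was not tested. Within 100 bases to either side, the run was found at 0.528% of all nuclear pooled summits, and at 2.74% of the 584 nuclear summits of the reproducible set.

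The summits of the cohesin genes resembled the pooled list in base composition. The 200 bp around them had a median GC content of 38.5% (range 17.0 to 52.5%), where all nuclear pooled summits had a median of 37.5%. Masked repeat sequence made up a median of 29.0% of these bases, and 26% in all nuclear pooled summits. Of 4 short motifs searched on both strands, GAGAGA was in 5 of the 30 windows (13.8% of all nuclear pooled summits had it). The others were in 1 window each. CCGCCC was near the weaker downstream summit of rec-8, and 5.82% of all nuclear pooled summits had it. The motif TTCGCGC was at the wapl-1 summit 149 bp upstream, and 2.0% of all had it. The core of the B box of tRNA genes, GGTTCGA, was in the upstream peak of coh-4, where no tRNA gene starts within 500 bp, and 3.22% of all had it.

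Agreement between the replicates was modest, as it was for summits of this rank elsewhere. Of the 30 pooled summits 8 had a summit within 100 bp in both replicates, against 22.9% of all nuclear pooled summits, while 15 were matched in replicate 1 alone (33.5% of all), 5 in replicate 2 alone (26.6% of all) and 2 in neither. Those 2 ranked below 10000, where 28.9% of the nuclear pooled summits were matched in neither. The 8 were at rec-8 (1), coh-3 (1), coh-4 (2), smc-3 (1), him-1 (2) and wapl-1 (1). Between ranks 607 and 1500, 3 of the 4 summits were matched in both, where 74.9% of the nuclear summits of those ranks were, and below rank 10000 the count was 0 of 15, where it was 4.21%. The best ranks of a gene also differed between replicates. For rec-8 they were 324 in replicate 1 and 3322 in replicate 2, for smc-3 5711 and 506, and for wapl-1 1522 and 9617. For coh-4 they were 1433 and 1178, and for coh-3 5720 and 5200. The replicates took these ranks from the same summit at smc-3 and coh-4 but from different summits at rec-8, wapl-1 and coh-3, so the close ranks at coh-3 show no agreement.

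**Figure D4:**
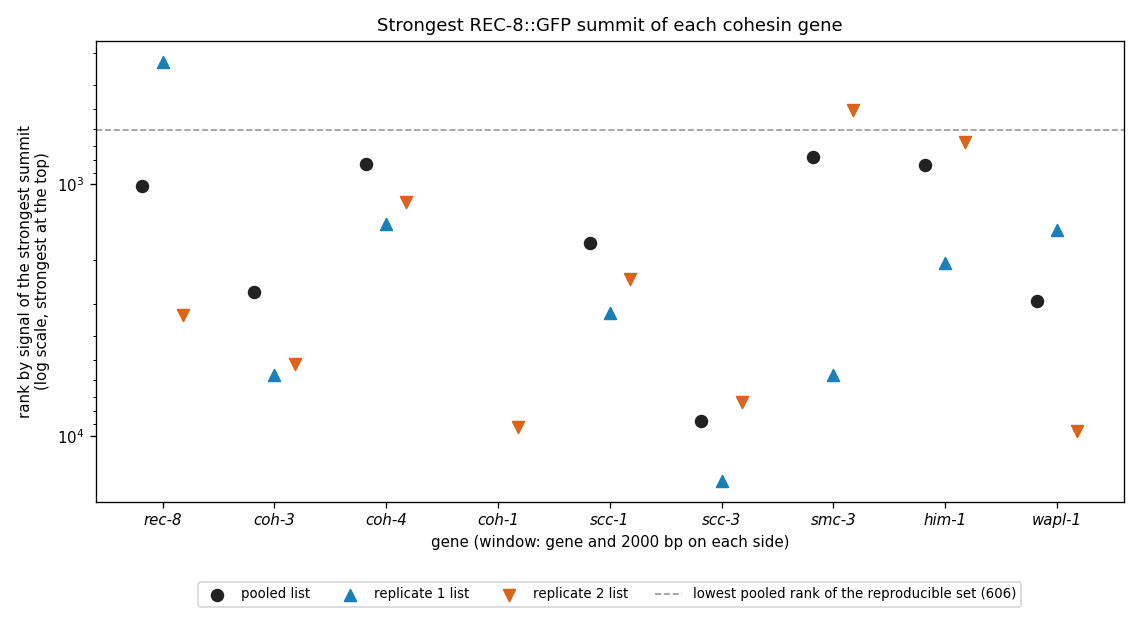
The rank by signal of the strongest summit in the window of each gene is plotted on a log axis with rank 1 towards the top, for the pooled list and each replicate, and the dashed line is the lowest pooled rank in the reproducible set. All pooled points lie below the line, and the points of rec-8 in replicate 1 (324) and smc-3 in replicate 2 (506) lie above it within their own lists.

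By their best pooled rank the genes came in the order smc-3 (779), coh-4 (829), him-1 (833), rec-8 (1017), scc-1 (1714), coh-3 (2670), wapl-1 (2901) and scc-3 (8749), with coh-1 last. The median of the 8 ranks was 1365.5, against 5662 for the 13637 nuclear protein-coding genes with a pooled summit. A best rank is taken over more summits where a window holds more. The cohesin windows held a median of 3, against 1 over all nuclear protein-coding genes. The median rank of all 30 pooled summits was 10310.5, against 9477 for the whole list. In replicate 1 the medians were 7664 and 10580.5, and in replicate 2 they were 9438 and 10752. Neither replicate gave that order: replicate 1 began with rec-8 (324), coh-4 (1433) and wapl-1 (1522), and replicate 2 with smc-3 (506), him-1 (678) and coh-4 (1178). Neighbours in the pooled order such as coh-4 and him-1 thus do not differ beyond the spread of the replicates.

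Other chromosome-structure genes gave the surroundings for these counts. Of 24 genes, namely 9 cohesin regulators, 11 genes of other SMC complexes and 4 of the meiotic chromosome axis, all had a pooled summit in the window and 14 had one within 500 bp of a transcript start, against the 68.3% and 27.4% of nuclear protein-coding genes given above. A summit of −log10 q above 1 was in the window of 6 of them, where 14.4% of nuclear protein-coding genes had one, and the median best rank was 3809, against 5662 for the genes with a pooled summit. A summit of the reproducible set was in the window of 4 of the 24 genes, and 4.91% of nuclear protein-coding genes had one, a share at which 0 of 9 does not set the ring genes apart. For the cohesin regulators it was tim-1, the Timeless homologue (pooled rank 264, ranks 387 and 175 in the replicates), 322 bp upstream and 21 bp from the start of the spliced leader RNA gene sls-2.8. For the other SMC complexes these were hcp-6, a condensin subunit gene (pooled rank 209, 149 bp upstream), and mix-1, an SMC gene of the condensins (rank 144), whose summit lay in an intron 41 bp from the snoRNA gene M106.6. Of the 4 meiotic axis genes, htp-2 had such a summit downstream (rank 357), 2 bp from the start of a pseudogene, and the next best were htp-3 (rank 5692) and htp-1 (rank 10770). The gene mix-1 was named after its value was seen. No gene of the axis list had a pooled summit within 500 bp of a start.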

How the data were processed

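From whole young adults, 2 ChIP-seq replicates, the authors deposited narrowPeak lists on ce11 for each replicate, for both replicates pooled, and a reproducible set chosen by the irreproducible discovery rate. Per the notes deposited with the files, each replicate and pooled list derives from alignments and a control file, and the reproducible set from those lists; no source used here states the aligner, peak caller or thresholds. The deposited signal column is the authors' peak-caller value, with unstated use of the control. The deposited q-values are on a −log10 scale. Depth is unknown, because read counts are not among the deposited columns. A summit is the peak start plus the deposited offset. The description names an anti-GFP antibody, while an antibody label reads rec-8. Lists on ce10 were not used here.

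Genes and parts came from Ensembl release 115 (WBcel235, the same assembly as ce11, with 0 peaks past a nuclear chromosome end), and sequences from the RefSeq copy of that assembly. A summit took the first fitting part in the order coding exon, untranslated region, other exon, intron, upstream, downstream. The rank of a peak is by signal within its list. A summit within 100 bp was a match. With 1 group of 2 replicates and no comparison, no test was made and no p-value is given: values stand beside the same measure over 19973 nuclear protein-coding genes. Genes named beyond the 9 were those of 3 lists with a summit within 500 bp of a start and in the reproducible set, otherwise the 3 of highest signal, and neighbours of summits. The genes and lists were chosen with earlier results of these data known. Functions were tested on simulated data. Computation used Python 3.11.15, numpy 2.4.6, pandas 2.3.3, matplotlib 3.10.9 and Biopython 1.88. Alternatives were other flanks, each replicate alone, the stronger peaks, interval overlap and other distances.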

Additional observations from a re-analysis of the deposited data

How the results depend on the processing

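No test was made, and values are from 1 group of 2 replicates, so replicate lists taken alone stand for leaving out the other. In the reproducible set alone the number of genes with a summit, the number of summits, those matched in both replicates, the genes with a summit within 500 bp of a start and the density ratio were all 0, and there was no best rank. With flanks of 5000 bp there were 55 summits, 13 of them matched, a ratio of 1.81 and a best rank of 489. With flanks of 500 bp the ratio was 1.37. The stronger part of the list, above its median rank, gave 14 summits and a ratio of 1.35. By interval overlap the ratio was 1.49, and with close summits counted once, which was added after the values were known, 1.3. A match within 50 bp was found for 5 summits and within 250 bp for 16. Without a replicate the ratio was 1.53 to 1.54 and the best rank 324 to 506. In all, 25 of 45 values moved by no more than 1.5 times (counts) or by no more than the spread of the replicates (ratio and rank). The ratio moved by more than that spread in all 8 of its alternatives, the replicates being as close as 1.53 and 1.54. The ratio stayed above 1 under every alternative but the reproducible set. No paired analysis was possible because there is 1 group.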

Other observations

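The nearest reproducible peak to a cohesin gene was 4388 bp upstream of wapl-1 (pooled rank 489), and the farthest was 483771 bp from coh-4, with a median of 48877 bp. For scc-3 it lay 12519 bp downstream, 15 bp from the start of a tRNA gene, and for coh-1 32369 bp upstream, 26 bp from another tRNA gene. In the 44.1 kb that reach 20000 bp to each side of rec-8, 21 pooled summits were listed, 0.476 per kb, where chromosome IV as a whole had 0.186 per kb. That was the highest pooled density around any of the 9 genes, with coh-3 next at 0.351 per kb and smc-3 lowest at 0.163 per kb. In these regions, which include the windows, the pooled density was above that of the chromosome around every gene but smc-3. In replicate 1 the density around rec-8 was 0.363 per kb, below those around scc-1 (0.426), wapl-1 (0.415) and him-1 (0.412). In replicate 2 it was 0.408 per kb, below that around him-1 (0.456). Whether the tagged transgene changed the number of reads around rec-8 was not tested.

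Just outside the windows, the nearest pooled summit was 2082 bp downstream of him-1 (rank 12451), and a stronger one was 2340 bp upstream of scc-1 (rank 1337, −log10 q 1.56). Just inside, the nearest was the wapl-1 summit 1486 bp upstream (rank 11344).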
